A study of Homo sapiens with 6 samples.

Results

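The comparison described here is that of a single hairpin against JMJD1C, shRNA63, with a control shRNA in Kasumi-1 cells. Its members were all genes that the authors tested and that reached at least 1 FPKM (fragments per kilobase of transcript, corrected for sequencing depth) in either group, which left 14475 of the 62016 genes in the table, out of 18271 tested genes. Kasumi-1 is an established human acute myeloblastic leukemia line of myeloblast type that carries the AML1-ETO fusion, in which the DNA-binding part of RUNX1 is joined to RUNX1T1. Cells had been infected with hairpin-expressing lentiviral (pLKO) vectors and RNA was taken after 4 days, in 2 libraries with the control shRNA and 2 libraries with JMJD1C shRNA63. All groups therefore carry the fusion, and the controls were also infected. The whole series holds 6 libraries, the other 2 being from cells with a second hairpin, JMJD1C shRNA95. A single cell line and, for the comparison here, a single hairpin sequence were used.

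JMJD1C belongs to the JmjC-domain proteins related to the demethylases of histone H3 lysine 9, a residue whose methylation marks silent chromatin. It is known as a transcriptional coactivator in AML1-ETO leukemia. The fusion itself binds RUNX sites and holds myeloid precursors at an early stage, at which the granule proteases of neutrophils are made but later markers of granulocytes and monocytes are scarce.

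The authors give 1 FPKM value per group, made from both libraries of that group, so no spread between libraries can be shown. A gene is called higher or lower here where its q-value (the p-value adjusted over all tested genes) in the authors' deposited table is under 0.05. Each log2 fold change is given with an error, its absolute value over the authors' test statistic. Whether replicate libraries came from different cultures is not in the labels; the p-values thus cover the spread between libraries, which may be technical. The depth of each library is unknown. In bulk RNA, fewer cells of a type and less RNA per cell cannot be told apart.

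JMJD1C itself was at 30.4 FPKM in the control group and at 13.7 FPKM with shRNA63, which is 45.1% of the control level. The authors' deposited table gives -1.15 for its log2 fold change, with an error of 0.30 and a Cuffdiff q of 0.00214. With the other hairpin, in the libraries labelled shRNA95, JMJD1C was at 29.4 and 25.1 FPKM (log2 fold change -0.23, error 0.30, q = 0.938 in the authors' deposited table), so the targeted gene was not called there and the label of those libraries is not borne out by it. The hg19 locus of JMJD1C in the table is chr10:64926981-65225722. Among the other 10 measured H3K9 demethylases none was called: KDM1A, the demethylase LSD1, was at 220 and 192 FPKM in control and shRNA63 cells, and the closest relatives KDM3A and KDM3B were at 34.0 and 36.4 FPKM and at 25.6 and 29.2 FPKM.

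Of 12 listed markers of myeloblasts 10 reached 1 FPKM, in both groups. CEBPA, also on the list, was at 0.458 FPKM in the control group and 0.382 FPKM with shRNA63. PRTN3, ELANE and AZU1, the granule serine proteases of early neutrophil precursors, stood at 1040 FPKM or more in both groups, KIT, the stem cell factor receptor, at 245 and 134 FPKM, and CD34 at 151 and 103 FPKM. RUNX1T1, the ETO part of the fusion, was at 103 FPKM in the control group and 121 FPKM with shRNA63 and was not called. MPO, the defining enzyme of the myeloblast, was listed at 0 in both groups and the authors' table marks it as having too many fragments to be computed, so it was not compared. Of 15 markers of T, B and natural killer cells, 4 reached 1 FPKM; the whole list summed to 15.2 FPKM in the control and 7.25 FPKM in the shRNA63 group, with CD5, MS4A1 and NCAM1 at 0. Of 16 epithelial, liver, nerve and fibroblast markers 1 was measured (EPCAM, 14.4 and 13.9 FPKM), and the list summed to 16.4 and 16.9 FPKM.

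In total 831 of the 14475 genes were called, which is 5.74%: 361 were higher with shRNA63 (2.49%) and 470 were lower (3.25%). These percentages are the background against which the counts of each gene group below should be read. The median log2 ratio, log2((shRNA63 FPKM + 1)/(control FPKM + 1)), was 0.0087, and 5% and 95% of genes lay below -0.7008 and 0.6541. A log2 ratio of at least 1 was seen in 306 genes, 79 of them called, and one of -1 or less in 345 genes, 158 of them called. The called share was 6.04% of genes at 1 to 5 FPKM and 5.76% of those at 100 FPKM and above. At 20 to 100 FPKM 80 genes were called higher and 166 lower, and at 100 FPKM and above 53 were higher and 40 lower. Protein-coding genes were called in 6.77% of cases and long noncoding RNA genes in 2.55%, with a median error of 0.357 against 0.955.

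**Figure D1:**
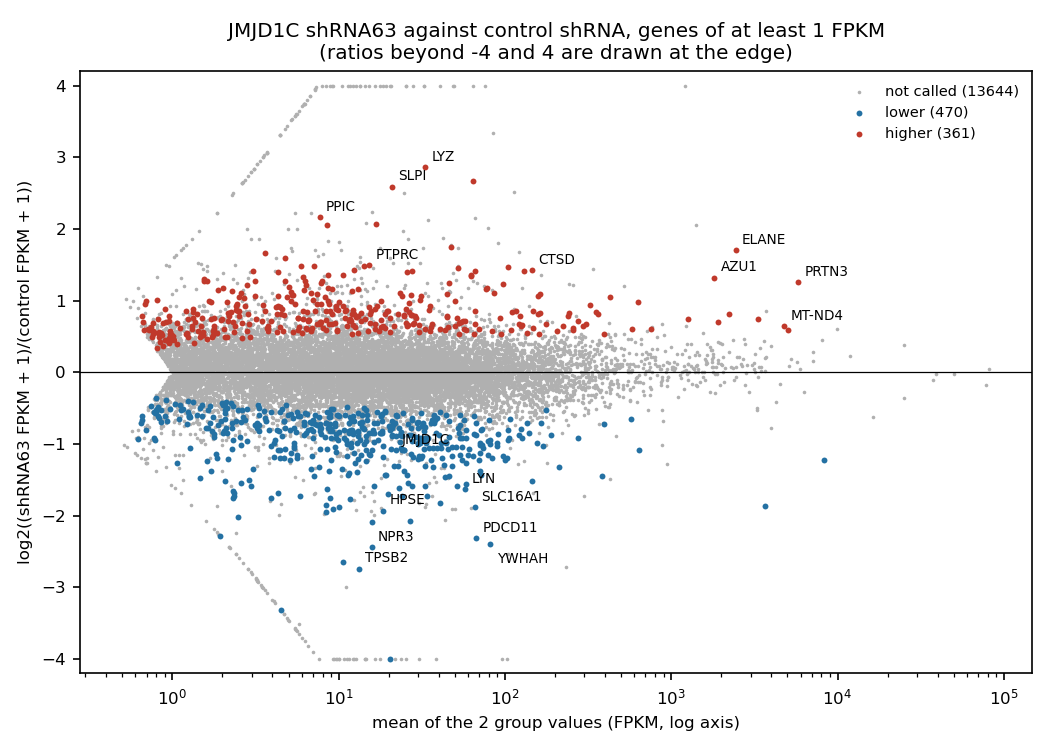
Each point is 1 of the 14475 genes, with the mean of the control and shRNA63 values on the horizontal axis (FPKM, log scale) and the log2 ratio on FPKM + 1 on the vertical axis. The 361 red and 470 blue points are genes called higher and lower; grey points at the upper and lower edges are mostly genes listed at 0 in 1 group and not called.

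The 15 highest ratios among called genes of at least 10 FPKM in the higher group begin with LYZ. This gene, which encodes lysozyme, an enzyme that breaks bacterial cell walls, went from 7.29 FPKM in the control group to 59.0 FPKM with shRNA63. Its log2 fold change was 3.02, with an error of 0.29, in the authors' deposited table, and the overlapping noncoding gene RP11-1143G9.4, on the same locus, moved with it (16.9 to 112 FPKM), so reads of the pair may be shared. SLPI, a secreted inhibitor of leukocyte elastase and cathepsin G, went from 5.23 to 36.5 FPKM (log2 fold change 2.80, error 0.22, in the authors' deposited table). CTSS, the lysosomal cysteine protease cathepsin S, went from 5.82 to 27.6 FPKM, and MNDA, a nuclear protein of the myeloid lineage, from 2.70 to 14.4 FPKM. PTPRC, the leukocyte common antigen CD45, went from 7.50 to 23.0 FPKM, and CTSD, the aspartic protease of lysosomes, from 78.1 to 212 FPKM. All of these were called higher.

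The remaining genes of these 15 have varied roles. PPIC, a cyclophilin that isomerizes proline bonds, went from 2.15 to 13.2 FPKM; its locus in the table is shared with SNX24. MAP3K8, a kinase upstream of ERK in inflammatory signalling, went from 7.02 to 21.5 FPKM, and IRX3, a homeobox transcription factor, from 55.2 to 154 FPKM. HSD17B10, a mitochondrial dehydrogenase, went from 27.5 to 77.6 FPKM, KCNH2, a voltage-gated potassium channel, from 6.24 to 18.5 FPKM, and TMEM99, whose locus overlaps KRT10, from 3.29 to 10.9 FPKM. ELANE completes the set together with CD24P4, a copy of the surface antigen gene CD24, whose reads cannot be assigned with certainty and whose value is not printed.

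**Figure D2:**
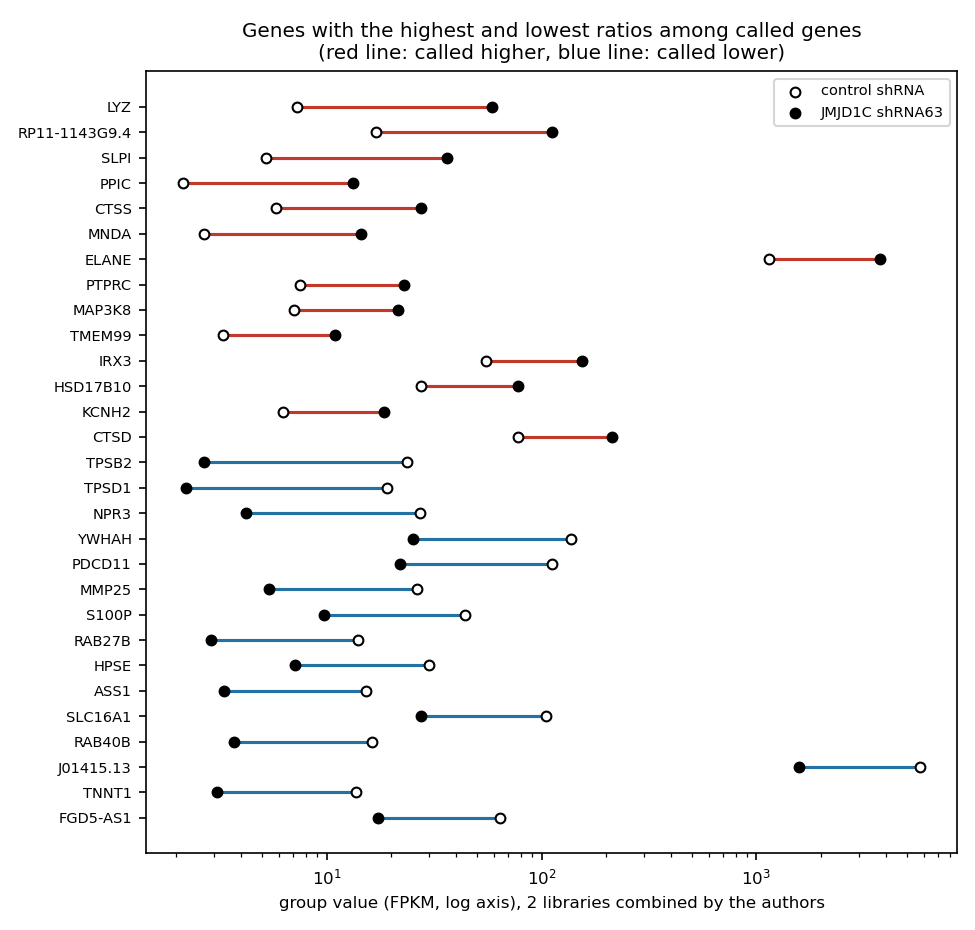
The horizontal axis shows FPKM on a log scale for control shRNA (open) and JMJD1C shRNA63 (filled) for the called genes with the highest (red lines) and lowest (blue lines) ratios. LYZ moves from 7.29 to 59.0 FPKM and TPSB2 from 23.7 to 2.69 FPKM; ELANE stands apart from the other higher genes by its level.

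The 15 genes with the lowest ratios begin with mast cell proteases. TPSB2 and TPSD1, which encode tryptases of mast cell granules, went from 23.7 to 2.69 FPKM and from 19.1 to 2.21 FPKM. Their log2 fold changes, taken from the authors' deposited table, were -3.14 (error 0.30) and -3.11 (error 0.27). Secretion and granule genes were also in this set: RAB27B, a small GTPase of granule release, went from 14.0 to 2.89 FPKM, and HPSE, the heparan sulfate cleaving enzyme heparanase, from 29.8 to 7.11 FPKM. MMP25, a membrane-anchored metalloprotease of leukocytes, went from 26.2 to 5.41 FPKM, and S100P, a small calcium-binding protein, from 43.9 to 9.73 FPKM.

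The others of these 15 have varied roles. YWHAH, an adaptor that binds phosphorylated proteins, went from 137 to 25.1 FPKM (log2 fold change -2.45, error 0.26, in the authors' deposited table), and PDCD11, a factor of ribosomal RNA processing, from 112 to 21.9 FPKM (-2.36, error 0.26, same source). SLC16A1, which carries lactate and other monocarboxylates across the membrane, went from 105 to 27.6 FPKM, and ASS1, argininosuccinate synthase, from 15.2 to 3.33 FPKM. NPR3, the clearance receptor of natriuretic peptides, went from 27.3 to 4.23 FPKM, RAB40B, a small GTPase, from 16.3 to 3.69 FPKM, and TNNT1, a muscle troponin, from 13.7 to 3.08 FPKM. The noncoding FGD5-AS1, whose listed locus overlaps MRPS25 and NR2C2, went from 64.1 to 17.4 FPKM. The last of the set, J01415.13, is a mitochondrial RNA of tRNA length listed at 5783 and 1579 FPKM; its error in the table prints as 0.00, which is not a plausible spread, so its value is uncertain.

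Neutrophil precursors pack the first granules they make with antimicrobial proteases. Of 16 listed primary granule genes 10 were measured, 5 were called higher and none lower (called share 50.0%), and the median log2 ratio was 0.56. PRTN3, proteinase 3, went from 3405 to 8181 FPKM, ELANE, neutrophil elastase, from 1143 to 3744 FPKM, and AZU1, the inactive protease homologue azurocidin, from 1040 to 2592 FPKM. For these genes the authors' deposited table has log2 fold changes of 1.26, 1.71 and 1.32, with errors of 0.26, 0.25 and 0.26. CTSG, cathepsin G, went from 254 to 455 FPKM, and PRSS57, a further granule protease, from 462 to 699 FPKM. All 5 are serine proteases or homologues of them.

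AZU1, PRTN3 and ELANE are neighbours within chr19:825097-856242 (hg19), a stretch of 31146 bases, and were called higher together. Genes on either side of them were not called: CFD, complement factor D and also a granule serine protease, was at 35.9 and 34.2 FPKM, PTBP1, a splicing regulator, at 767 and 827 FPKM, LPPR3 at 245 and 338 FPKM, and MED16, a Mediator subunit, at 14.9 and 21.6 FPKM. AC004799.3, on the AZU1 locus, was at 315 and 727 FPKM and was not called, with an error of 0.89 in the authors' deposited table. PRSS57, also called higher, lies outside the stretch at chr19:685546-695460 (hg19). The stretch was chosen after the values had been seen, so no boundary of the calls is read from it.

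Genes of later granulocytes and of monocytes were called in both directions. Of 16 late neutrophil granule genes 2 were measured, SLPI (higher) and MMP25 (lower). Of 23 monocyte and macrophage genes 10 were measured, 6 were called higher and 1 lower, and the median ratio was 0.95. Besides LYZ, CTSS and MNDA the higher genes were LAPTM5, found in the lysosome membrane of leukocytes (4.36 to 12.8 FPKM), TLR2, a receptor for bacterial lipoproteins (1.28 to 4.31 FPKM), and CD4 (40.4 to 65.8 FPKM). AIF1, an actin-bundling protein of macrophages, was lower (50.4 to 16 FPKM; log2 fold change -1.65, error 0.28, in the authors' deposited table). The other 13 listed genes did not reach 1 FPKM in a tested row in either group.

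Among 5 measured subunits of the phagocyte oxidase, which makes superoxide, CYBA, the small membrane subunit, was called higher (238 to 379 FPKM). RAC2, its GTPase, was at 36.6 and 56.6 FPKM and was not called. Of 17 measured S100 and annexin genes, which encode calcium-binding proteins, 5 were higher and 2 lower. ANXA5 went from 35.8 to 96.9 FPKM and ANXA2 from 116 to 179 FPKM, while ANXA7 fell from 94.6 to 46.6 FPKM. ANXA1, ANXA3 and S100A6 were called higher at no more than 2.59 FPKM. Their control values of 0.465, 0.821 and 0.436 FPKM were under the limit, so they entered only through the shRNA63 group. The list's median ratio was 0.45, and 0.06 over members of at least 5 FPKM.

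In the mast cell, basophil and eosinophil list 4 of 6 measured genes were called lower and none higher. The other 13 of the 19 listed genes, CPA3, HDC and MS4A2 among them, did not reach 1 FPKM in a tested row in either group. TPSAB1, another tryptase, went from 4.35 to 0.824 FPKM, and SLC45A3, a membrane transporter, from 22.7 to 15.2 FPKM. TPSAB1 was under the limit with shRNA63 and entered only through the control group. PRG2, the major basic protein of eosinophils, was at 1.65 FPKM in the control group and 9.56 FPKM with shRNA63, where the authors' deposited table has a log2 fold change of 2.54 with an error of 1.13 and a q-value of 0.122, above the limit for a call. The 3 tryptase genes lie within chr16:1277272-1308532 (hg19), and CACNA1H, a calcium channel gene next to them, was also called lower (1.13 to 0.514 FPKM). This stretch was chosen after the values had been seen. The tryptases are near-identical copies, so the division of reads between them is uncertain, though all 3 values moved the same way.

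Of 4 measured megakaryocyte and erythroid genes ITGA2B, the platelet integrin chain, was called lower (2.29 to 0.914 FPKM); the whole list of 22 summed to 178 FPKM in the control group and 197 FPKM with shRNA63, and the globins HBA2, HBB, HBD and HBG1 were at 0 in both. Among 13 measured stem and progenitor surface genes KIT was called lower (log2 fold change -0.87, error 0.26, in the authors' deposited table) and CD33, a myeloid lectin, higher (19.8 to 35.4 FPKM). CD34 gave -0.55 (error 0.27) in the authors' deposited table, with q = 0.0743, above the threshold. CLEC12A and CD38 were at 0.0728 and 0.406 FPKM in the control group and at 1.25 and 1.22 FPKM with shRNA63, neither of them called.

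Of 26 measured transcription factors of blood development 3 were called. SPI1, the master regulator of myeloid cells, went from 42.0 to 69.2 FPKM (log2 fold change 0.72, error 0.25, in the authors' deposited table). CEBPD, a C/EBP factor of myeloid maturation, went from 1.34 to 3.56 FPKM. ERG, an ETS factor of stem cells and endothelium, fell from 74.0 to 35.6 FPKM (-1.06, error 0.29, same source). RUNX1 (98.8 and 118 FPKM), MYB (242 and 288 FPKM), GFI1 (180 and 195 FPKM) and CEBPE (36.8 and 52.1 FPKM) were not called.

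Among chromatin genes none of the 11 H3K9 methyltransferases and HP1 proteins was called at q under 0.05 by the authors' Cuffdiff test, and 2 had an unadjusted p under 0.05, 1 in each direction. SUV39H2, an H3K9 methyltransferase, was at 44.4 and 26.4 FPKM (q = 0.0612 in the authors' deposited table). Of 19 polycomb, DNA methylation and TET genes 4 were called lower (21.1%) and none higher. DNMT3A, a de novo DNA methyltransferase, went from 41.2 to 20.3 FPKM, SUZ12, a polycomb subunit, from 66.6 to 38.5 FPKM, UHRF1, which guides maintenance methylation, from 41.7 to 23.2 FPKM, and TET1, an oxidase of methylated cytosine, from 13.4 to 9.20 FPKM.

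**Figure D3:**
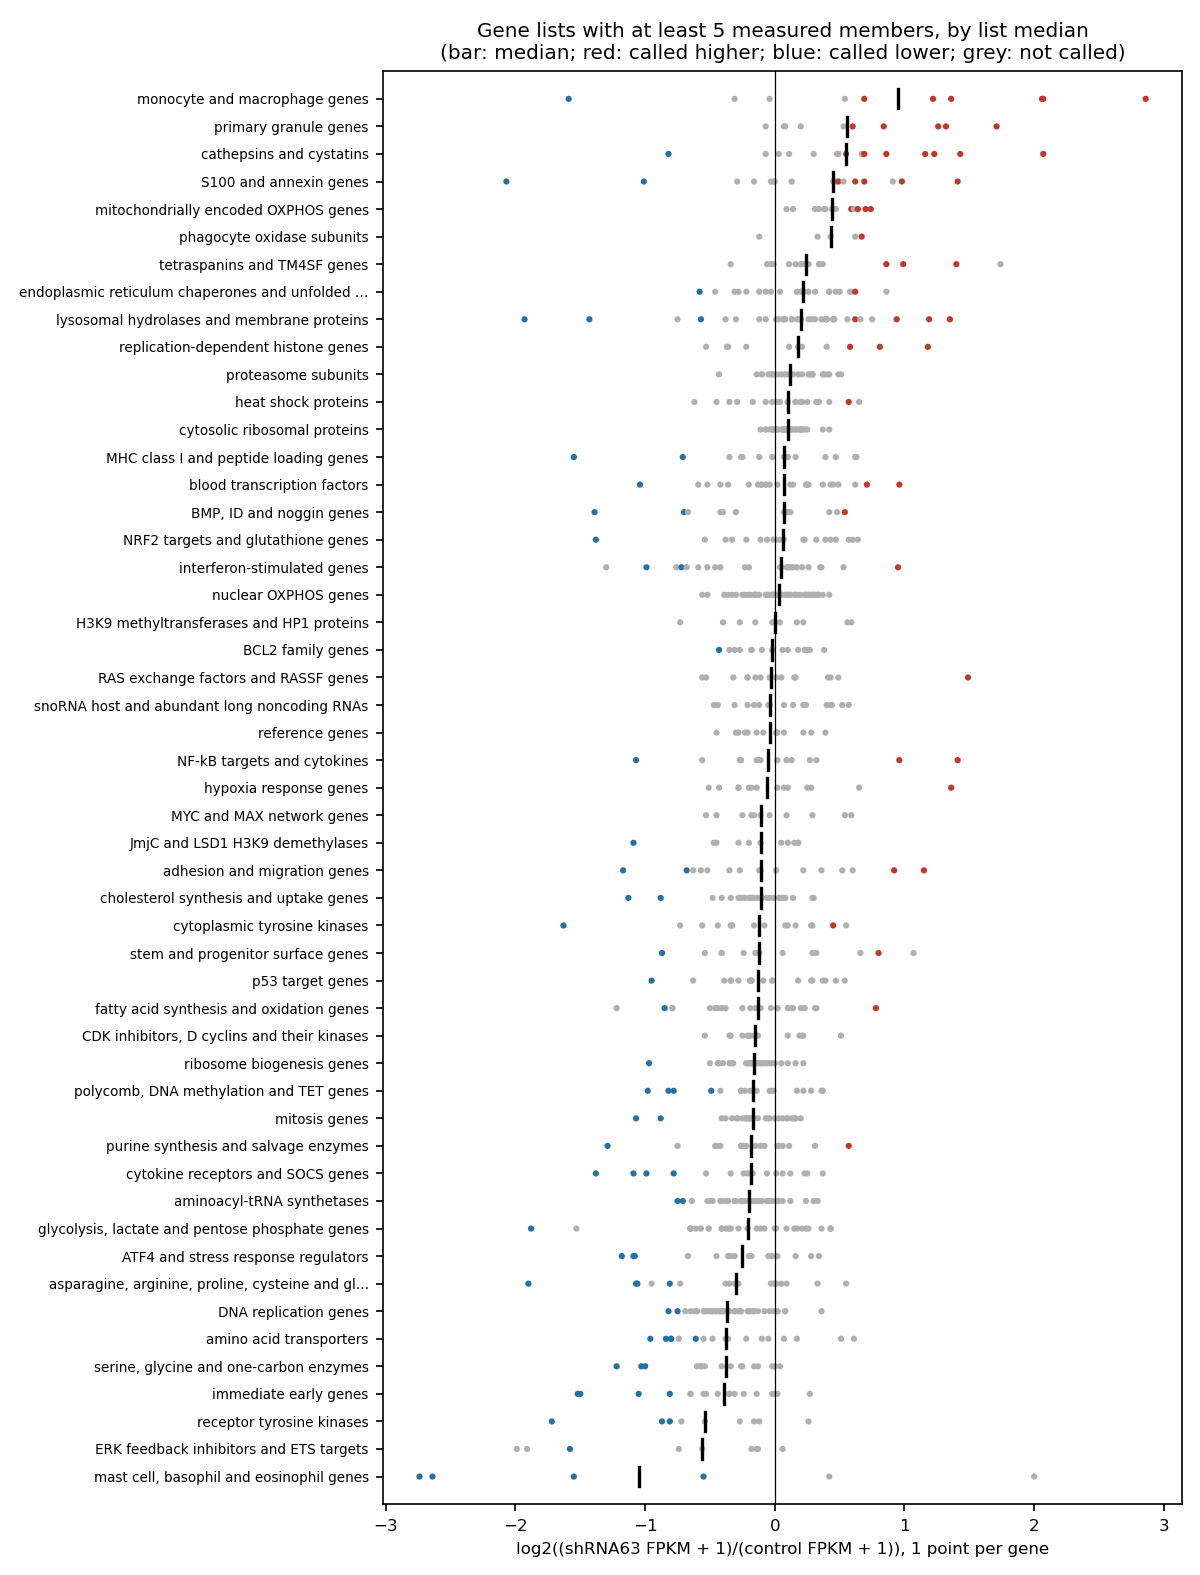
For lists with at least 5 measured members, each point is a member, placed by its log2 ratio on FPKM + 1, with the list median as a black bar; red and blue points are called higher and lower and lists are ordered by median. The lists of cell type markers, myeloblast markers among them, are left out. The medians run from -1.05 (mast cell, basophil and eosinophil genes) to 0.95 (monocyte and macrophage genes).

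Among receptors and genes that answer to growth factor signals, 4 lists were counted together. Over these lists (receptor tyrosine kinases, ERK feedback inhibitors and ETS targets, immediate early genes, cytokine receptors) 53 genes were measured. Of these, 12 were lower (22.6%) and none higher, against 3.25% lower among all genes, and 43 of 53 ratios were under 0. The lists were drawn up with earlier results of these data known, so the counts are not independent evidence. Signalling lists left out of this count held higher calls. Tetraspanin and TM4SF genes had 3 higher and 0 lower calls in 16 measured members, and adhesion and migration genes 2 and 2 in 17. Growth factors act on receptor tyrosine kinases such as KIT, which signal through RAS and ERK; ERK then induces immediate early transcription factors and its own inhibitors.

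Of the 9 measured receptor tyrosine kinases 3 were called lower: KIT, FLT1, a receptor for vascular endothelial growth factor (15.5 to 8.41 FPKM), and TIE1, an endothelial receptor (4.12 to 0.549 FPKM). Among cytokine receptors IL1RAP, the co-receptor for interleukin 1, went from 33.3 to 15.1 FPKM. IL2RG, the common gamma chain, went from 207 to 104 FPKM, and TNFRSF1B, a TNF receptor, from 4.37 to 2.12 FPKM. IL1RAP had a log2 fold change of -1.14, with an error of 0.29, in the authors' deposited table.

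Of 16 measured cytoplasmic tyrosine kinases, LYN, the main SRC family kinase of myeloid cells, fell from 87.9 to 27.7 FPKM (log2 fold change -1.66, error 0.27, in the authors' deposited table). SYK was called higher at a low level (0.677 to 1.29 FPKM). RASSF4, a RAS-binding protein, was the 1 called gene of 17 RAS exchange factors and RASSF genes (2.66 to 9.29 FPKM).

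DUSP6, the phosphatase that switches off ERK and is induced by it, went from 77.2 to 25.1 FPKM and was called lower, the 1 call among 9 measured ERK feedback genes. Lower values without a call stood beside it: ETV5, an ETS factor downstream of ERK, was at 79.2 and 20.3 FPKM (log2 fold change -1.96, error 1.79, in the authors' deposited table) and ETV4 at 7.59 and 1.16 FPKM (-2.72, error 1.91, same source). SPRY1 and SPRY2, the Sprouty inhibitors, were at 2.90 and 2.57 FPKM and at 14.1 and 14.7 FPKM.

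Of 18 measured immediate early genes 4 were called lower and none higher, and 16 ratios were under 0. EGR1, a zinc finger factor induced within minutes of a growth signal, went from 3.56 to 0.594 FPKM (log2 fold change -2.58, error 0.28, in the authors' deposited table). KLF10 went from 4.73 to 1.03 FPKM, IER2 from 32.2 to 15 FPKM and ATF3 from 5.15 to 2.52 FPKM. FOS was at 1.30 and 0.464 FPKM, JUNB at 17.1 and 10.6 FPKM and MYC at 374 and 260 FPKM, none of them called. The EGR1 promoter is shown because it carries CArG boxes, the sites of serum response factor, through which ERK signals reach immediate early genes. The 250 bases before the RefSeq start (GRCh38.p14, plus strand, chr5:138465229-138465478; a later build than the hg19 of the expression table) are given 5′ to 3′ with the 2 CArG boxes in capitals, the first starting 105 bases before the start.
EGR1: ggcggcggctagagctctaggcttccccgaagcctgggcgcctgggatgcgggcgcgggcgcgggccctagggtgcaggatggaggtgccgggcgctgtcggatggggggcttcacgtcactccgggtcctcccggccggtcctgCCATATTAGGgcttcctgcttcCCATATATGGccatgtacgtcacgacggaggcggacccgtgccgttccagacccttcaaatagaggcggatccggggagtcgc
The CArG pattern searched is its own reverse complement. Of the 4 called-lower immediate early genes 3 had a promoter in the RefSeq table, and EGR1 was the 1 with a CArG box in this window. Among 27305 genes 1.44% had a match. With 1 match in 3 promoters no enrichment is read from these counts. A match in these letters is a description, not a measured binding site.

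Genes of the BMP pathway moved apart: of 13 measured, NOG, the BMP antagonist noggin, fell from 19.1 to 6.64 FPKM and ID1, a BMP target, from 16.9 to 10.0 FPKM, while BAMBI, a decoy receptor, rose from 43.2 to 63.3 FPKM. Among 17 adhesion and migration genes CXCR4, the receptor that holds cells in the marrow, rose from 2.65 to 5.94 FPKM and ICAM2 from 3.44 to 8.87 FPKM. ESAM, an endothelial and stem cell adhesion molecule, fell from 42.7 to 18.5 FPKM and ITGAL, an integrin chain, from 1.37 to 0.476 FPKM, the latter with a log2 fold change of -1.53 and an error of 1 in the authors' deposited table. Of 16 tetraspanin and TM4SF genes 3 were called higher and none lower: CD53 (46.9 to 85.9 FPKM), CD82 (1.93 to 6.70 FPKM) and TM4SF1 (5.47 to 11.8 FPKM).

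Inflammatory and interferon genes were called in both directions. Of 14 NF-kB targets and cytokines, IL8, a neutrophil attractant, rose from 1.20 to 4.87 FPKM and TNFAIP3, an NF-kB inhibitor, from 4.99 to 10.7 FPKM, while IL1B fell from 3.45 to 1.12 FPKM. Of 25 measured interferon-stimulated genes 1 was higher and 2 were lower, IFI16, a DNA sensor, falling from 94.2 to 47.0 FPKM and OASL from 1.78 to 0.684 FPKM, with IFI35 rising from 3.43 to 7.53 FPKM. NLRC5, the transactivator of MHC class I genes, fell from 39.7 to 12.9 FPKM and HLA-E from 83.0 to 50.2 FPKM. The classical class I gene HLA-B (145 and 155 FPKM) and its partner B2M (1760 and 2300 FPKM) were not called. Of 12 MHC class II genes 1 was measured and it was not called.

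Lysosomes hold the acid proteases and hydrolases that break down cell contents. Over the cathepsin and lysosomal lists 52 genes were measured, 11 were higher (21.2%) and 4 lower (7.69%), against 2.49% and 3.25% of all genes, and 42 of 52 ratios were above 0. Of 15 measured cathepsins and cystatins, the proteases of the lysosome and their inhibitors, 7 were higher and 1 lower. Of the 7, CST7 (0.477 to 1.16 FPKM) and CTSO were under 1 FPKM in the control group. Both entered only through the shRNA63 group, which raises the 7 of 15 and the 11 of 52. These lists too were drawn up with earlier results of these data known. CTSA, the carboxypeptidase that protects lysosomal sialidase, went from 57.5 to 136 FPKM (log2 fold change 1.25, error 0.35, in the authors' deposited table), CTSL1, cathepsin L, from 4.83 to 9.61 FPKM, and CST3, the secreted inhibitor cystatin C, from 7.67 to 18.3 FPKM. CSTA, the cytosolic cystatin A, fell from 15.1 to 8.11 FPKM. CTSB was at 86.6 and 138 FPKM and was not called, its error being 0.44 on a log2 fold change of 0.68 in the authors' deposited table.

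Among 37 measured lysosomal hydrolases and membrane proteins 4 were higher and 3 lower. Among those that rose, NPC2, which binds cholesterol in the lysosome, went from 35 to 90.5 FPKM, PSAP, the precursor of the saposins, from 221 to 424 FPKM, SMPD1, acid sphingomyelinase, from 2.66 to 7.36 FPKM, and ARSA, which removes sulfate from sulfatide, from 4.81 to 7.95 FPKM. Among those that fell were HPSE and NEU1, the lysosomal sialidase (29.4 to 19.5 FPKM). The authors' deposited table has a log2 fold change of 1.37 for NPC2, with an error of 0.23.

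Genes of amino acid supply were counted over 5 lists. In these (serine, glycine and one-carbon enzymes, ATF4 and stress regulators, asparagine, arginine and related enzymes, amino acid transporters, and tRNA synthetases) 104 genes were measured, 17 were called lower (16.3%) and none higher, against 3.25% and 2.49% of all genes, and 80 ratios were under 0. Cells answer a shortage of amino acids through the transcription factor ATF4, which raises synthesis enzymes, transporters and tRNA synthetases by binding C/EBP-ATF response elements. Since the lists were drawn up with earlier results of these data known, the counts describe the data and are not independent evidence.

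Serine is made from a glycolytic intermediate by PHGDH and PSAT1. PHGDH, which takes the first step, went from 140 to 59.4 FPKM, and PSAT1, the transaminase that follows, from 120 to 58.2 FPKM. Their log2 fold changes were -1.23 and -1.05 in the authors' deposited table, each with an error of 0.25. ALDH1L2, a mitochondrial folate enzyme, fell from 15.5 to 7.29 FPKM. PSPH, the last enzyme of serine synthesis, was at 48.3 and 37.9 FPKM, and the folate enzymes MTHFD2 and SHMT2 at 234 and 155 FPKM and at 185 and 124 FPKM, without a call; 15 of the 16 measured members had a ratio under 0.

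ATF4 mRNA itself was at 267 FPKM in the control group and 207 FPKM with shRNA63 (the authors' deposited table has a log2 fold change of -0.36, error 0.24) and it was not among the called genes. Of the 16 measured genes in its list 3 were lower: DDIT4, an inhibitor of mTOR signalling (39.2 to 16.8 FPKM), TRIB3, a pseudokinase that feeds back on ATF4 (34.0 to 15.6 FPKM), and CHAC1, which degrades glutathione (6.42 to 2.48 FPKM). DDIT3, the partner factor CHOP, was at 10.1 and 11.5 FPKM and ATF5 at 39.5 and 50.2 FPKM, both without a call.

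Of 18 measured enzymes of asparagine, arginine, proline, cysteine and glutamine metabolism 4 were lower. ASS1, which joins citrulline and aspartate on the way to arginine, had the lowest log2 fold change of them in the authors' deposited table (-2.19, error 0.36). ASNS, asparagine synthetase, went from 133 to 75.1 FPKM, BCAT1, the cytosolic branched-chain transaminase, from 53.2 to 25 FPKM, and CBS, which commits homocysteine to cysteine, from 10.8 to 4.60 FPKM. ALDH18A1, the first enzyme of proline synthesis, was at 84.2 and 84.3 FPKM.

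Amino acid transporters had 5 lower calls in 17 measured members. SLC38A2, an importer of small neutral amino acids, went from 181 to 100 FPKM, SLC7A5, the light chain of the leucine carrier, from 74.8 to 42.6 FPKM, SLC38A1 from 79.1 to 51.3 FPKM, SLC7A1, the carrier of cationic amino acids, from 19.5 to 9.52 FPKM, and SLC1A4 from 13.9 to 7.53 FPKM. SLC3A2, the heavy chain that pairs with SLC7A5, was at 194 and 139 FPKM and was not called. Of these 5 transporters 1 had a q-value under 0.01 in the authors' deposited table.

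The tRNA synthetases, which load amino acids onto tRNA, had 2 lower calls, NARS for asparagine (168 to 102 FPKM) and FARSB for phenylalanine (40.1 to 23.5 FPKM), a called share of 5.41% and so close to the background. Among the 20 cytosolic enzymes 19 ratios were under 0 with a median of -0.33, and among the 17 mitochondrial enzymes 10 were under 0 with a median of -0.06. The difference between these classes was not tested.

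**Figure D4:**
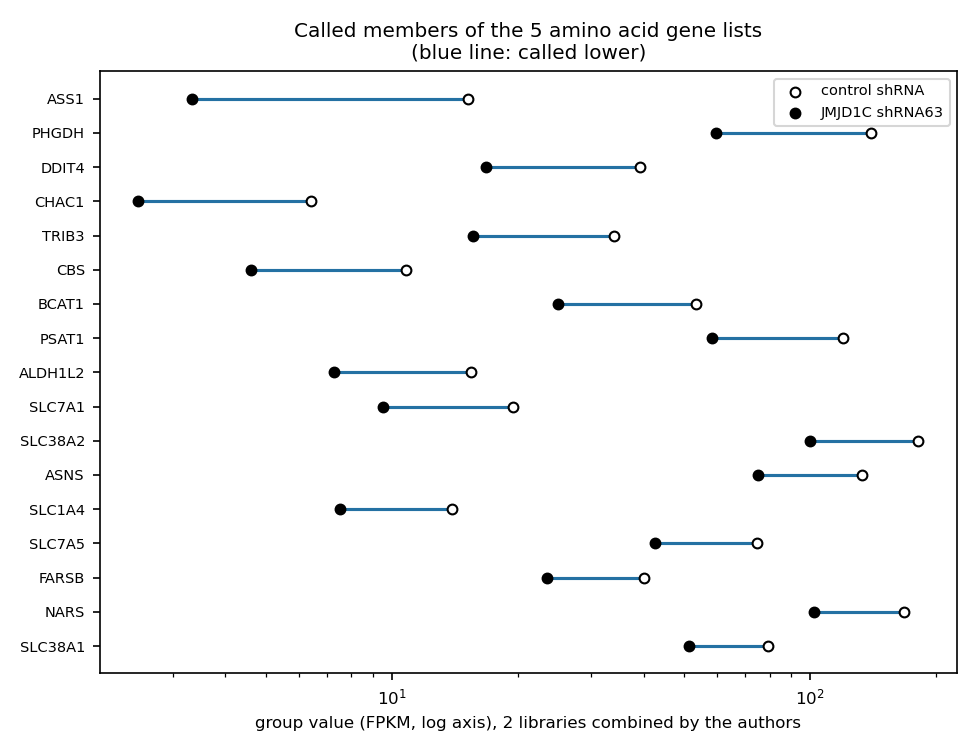
FPKM in the control group (open) and the shRNA63 group (filled) on a log axis for the 17 called members of the 5 amino acid lists. All lines are blue, that is lower, from ASS1 (15.2 to 3.33 FPKM) to SLC38A1 (79.1 to 51.3 FPKM).

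The promoters of 3 of these 17 genes carry the core of the C/EBP-ATF response element, and are shown because this is the element that ATF4 uses. RefSeq promoters (GRCh38.p14, a later build than the expression table's hg19) were available for 16 of the 17 genes; the motif searched was TGATGNAA on either strand (reverse complement TTNCATCA), and it was found within the promoter of ASNS, BCAT1 and CHAC1 (18.8%), against 3.89% of 27305 genes with a promoter. The lists hold groups of genes that ATF4 raises and were drawn up with earlier results known, and their uncalled members were not counted. With 3 matches in 16 promoters no enrichment is read from these counts. A match in these letters is a description, not a measured binding site. The 250 bases before the start are given 5′ to 3′ on the gene's strand with the match in capitals: ASNS at chr7:97872409-97872658, minus strand, match starting 68 bases before the start; BCAT1 at chr12:24949102-24949351, minus strand, 48 bases before; CHAC1 at chr15:40953221-40953470, plus strand, 209 bases before and in the reverse orientation.
ASNS: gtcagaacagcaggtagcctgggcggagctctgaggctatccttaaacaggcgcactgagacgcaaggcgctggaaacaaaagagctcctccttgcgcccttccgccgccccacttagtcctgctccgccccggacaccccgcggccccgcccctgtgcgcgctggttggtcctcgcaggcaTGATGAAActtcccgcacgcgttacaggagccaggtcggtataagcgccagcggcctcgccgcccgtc
BCAT1: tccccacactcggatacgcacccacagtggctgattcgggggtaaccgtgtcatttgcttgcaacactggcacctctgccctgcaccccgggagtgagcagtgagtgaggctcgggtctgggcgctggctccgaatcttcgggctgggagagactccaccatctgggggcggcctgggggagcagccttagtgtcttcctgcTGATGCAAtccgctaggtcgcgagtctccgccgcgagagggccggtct
CHAC1: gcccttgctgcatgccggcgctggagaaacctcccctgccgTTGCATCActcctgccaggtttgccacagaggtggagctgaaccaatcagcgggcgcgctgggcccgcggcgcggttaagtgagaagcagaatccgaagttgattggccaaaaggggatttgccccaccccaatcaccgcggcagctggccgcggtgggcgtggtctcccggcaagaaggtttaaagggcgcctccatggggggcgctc
These 3 genes had log2 fold changes of -0.82 (error 0.22), -1.09 (error 0.34) and -1.37 (error 0.36) in the authors' deposited table, between those of ASS1 (-2.19) and SLC38A1 (-0.62), the lowest and the highest of the 17 genes in that table. For the RUNX core TGTGGT (reverse complement ACCACA), searched because AML1-ETO binds such sites, 1 of 7 promoters of called-higher granule and monocyte genes had a match (PRSS57, 14.3%), against 13.2% of all genes.

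Lipid and sugar metabolism had few calls. Of 27 cholesterol genes INSIG1, which retains the sterol sensor in the endoplasmic reticulum, fell from 97.3 to 44.0 FPKM and HMGCS1, an early enzyme of the pathway, from 86.9 to 46.7 FPKM, while SREBF2, the sterol-regulated transcription factor, was at 96.4 and 68.7 FPKM and was not called. Of 24 fatty acid genes CPT1A, which admits fatty acids to mitochondria, fell from 20.8 to 11.1 FPKM and ME1, malic enzyme, rose from 1.36 to 3.05 FPKM. Of 31 genes of glycolysis, lactate and the pentose phosphate path SLC16A1 and LDHA, lactate dehydrogenase A (701 to 446 FPKM), were lower. The glucose carrier SLC2A3 was at 57.9 and 19.4 FPKM with q = 0.0537 in the authors' deposited table and missed the threshold. Of 20 purine enzymes ADSS, on the way to AMP, fell from 61.5 to 24.5 FPKM and the salvage enzyme APRT rose from 165 to 247 FPKM.

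Respiratory chain subunits are encoded in both the mitochondrial and the nuclear genome. All 13 mitochondrially encoded subunits had a ratio above 0 (median 0.44) and 4 were called higher: MT-CO2 (4016 to 6067 FPKM), MT-ND4 (3754 to 5832 FPKM), MT-ND3 (2490 to 4146 FPKM) and MT-ND2 (1446 to 2351 FPKM). Of 59 nuclear subunits none was called by the authors' Cuffdiff test, 2 had an unadjusted p under 0.05, and the median ratio was 0.03. The mitochondrial transcripts are cut from shared precursors, so their values are not independent of each other, and the median error of these 13 was 0.159. The difference between the 2 genomes was not tested.

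Stress response genes had called shares near the background. Among 24 genes of the endoplasmic reticulum, the chaperone gene HSPA5 rose from 201 to 310 FPKM and DNAJC3 fell from 21.9 to 14.4 FPKM. BAG3 (11.9 to 18.0 FPKM) was the 1 call of 21 heat shock genes and NDRG1 (5.57 to 15.8 FPKM) the 1 call of 14 hypoxia genes. GSR, glutathione reductase, fell from 36.2 to 13.3 FPKM, the 1 call among 20 NRF2 targets and glutathione genes. In the p53 target list RRM2B fell from 15 to 7.28 FPKM, and of 16 BCL2 family genes BOK fell from 2.42 to 1.54 FPKM.

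Few growth genes passed the threshold. Of 44 DNA replication genes 38 had a ratio under 0 (median -0.37), 13 had an unadjusted p under 0.05 and 2 were called lower by the authors' test, RFC3, a clamp loader subunit (25.4 to 14.6 FPKM), and UHRF1. MCM6 and MCM2, helicase subunits, were at 133 and 83.9 FPKM and at 111 and 75.5 FPKM. Of 30 mitosis genes TOP2A, which untangles chromosomes, fell from 158 to 85.4 FPKM and MAD2L1, a spindle checkpoint protein, from 82.2 to 38.7 FPKM, while the proliferation marker MKI67 was at 27.5 and 31.6 FPKM. Ribosome biogenesis had 30 of 34 ratios under 0 and 1 call, POLR1B, a subunit of RNA polymerase I (58.6 to 29.4 FPKM).

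None of the 38 ribosomal protein genes, 31 proteasome genes, 14 CDK inhibitors, cyclins and kinases, 19 noncoding RNAs and 14 reference genes was called by the authors' Cuffdiff test; at an unadjusted p under 0.05 there were 1, 4, 3, 3 and 2 such genes. Among the reference genes ACTB was at 3613 and 3665 FPKM and GAPDH at 3237 and 2664 FPKM. The list of clustered histone genes had 3 higher calls in 11 measured members. HIST1H2BK went from 8.69 to 16 FPKM and HIST1H2AC from 0.856 to 3.20 FPKM, the latter entering only through the shRNA63 group.

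The second hairpin, shRNA95, was compared by the authors with the same control libraries, so the results are set side by side and no overlap is read as support. Called shares under the same rule were 5.04% in the libraries labelled shRNA95, 3.06% higher and 1.98% lower. Of the 15 named higher genes 10, CD24P4 among them, were also called higher in those libraries and 5 were not called. ELANE had log2 fold changes of 1.71 and 0.02 with shRNA63 and shRNA95 in the authors' deposited tables, CTSD 1.44 and 0.50, and LYZ 3.02 and 3.32.

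Of the 15 named lower genes 6 were also called lower in the libraries labelled shRNA95 (J01415.13, with its implausible error, is 1 of these), 7 were not called and 2, MMP25 and S100P, were called higher. In the authors' deposited tables MMP25 had log2 fold changes of -2.28 with shRNA63 and 0.96 with shRNA95, and S100P -2.17 and 1.24. YWHAH (-2.45 and 0.08), PDCD11 (-2.36 and 0.33), SLC16A1 (-1.92 and 0.01), TNNT1 (-2.15 and 0.14) and FGD5-AS1 (-1.88 and 0.03) were near 0 or above with the second hairpin in the same tables. TPSB2 (-3.14 and -2.73) and TPSD1 (-3.11 and -3.06) were low with both. JMJD1C itself was called lower with shRNA63 alone of the 2, as given above, and the differences between hairpins were not tested here.

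**Figure D5:**
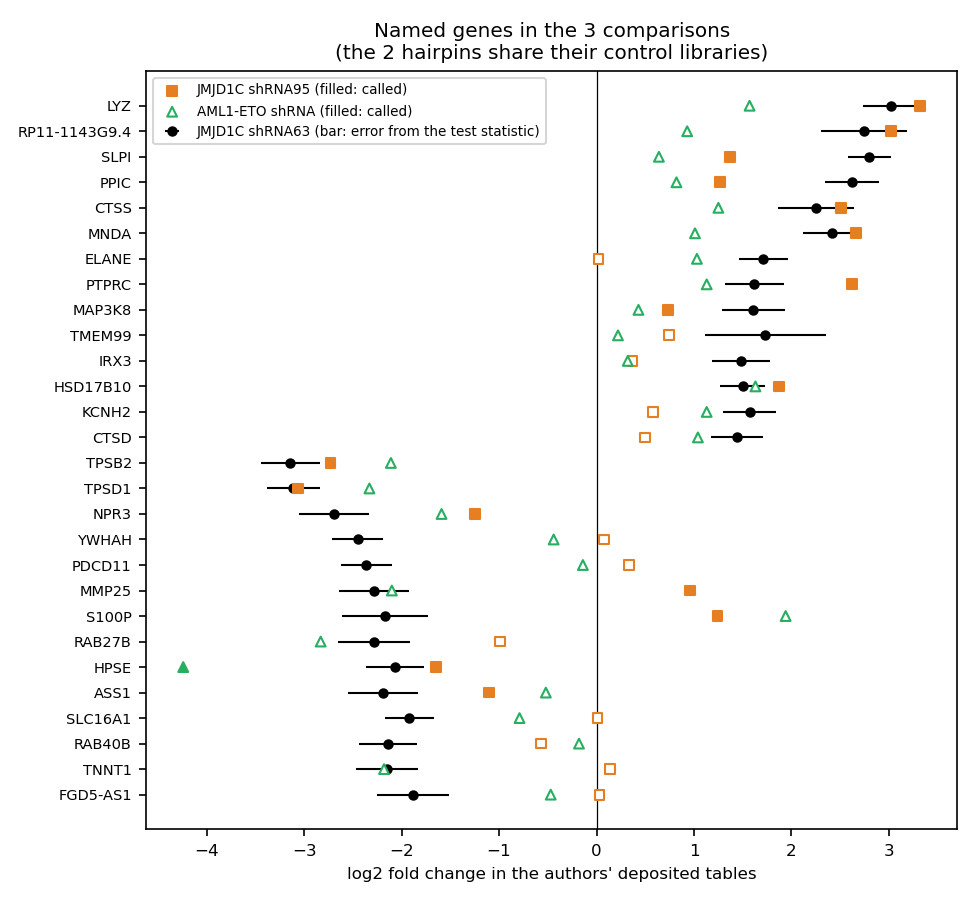
Log2 fold changes from the authors' deposited tables for the named genes, without CD24P4 and J01415.13, with JMJD1C shRNA63 (black, bar: error from the test statistic), JMJD1C shRNA95 (orange) and AML1-ETO shRNA (green); filled symbols mark calls in those comparisons. LYZ, CTSS and TPSD1 lie close together for the libraries labelled with the 2 hairpins, whereas YWHAH, PDCD11, MMP25 and S100P lie on different sides or near 0 for shRNA95.

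Another table of the authors compares AML1-ETO depletion with its control from 1 library each of another study, so its test compares 2 libraries and not conditions; 0.411% of its tested genes were called, 0.223% higher and 0.187% lower. Of the 50 genes called higher there 24 were among the 14475 genes described here. Of these, 13 (54.2%) were called higher with shRNA63, beside 2.49% of all genes. The 13 are 3.60% of the 361. They include SPI1, CTSG, LAPTM5, CD82, ANXA1 and CST7, and also CD24P4, whose reads are uncertain. Of the 13, ANXA1, CST7, BANK1 and PLB1 were under 1 FPKM in the control group. They entered only through the shRNA63 group, so the 54.2% depends partly on the FPKM limit. HCST and LST1 were lower with shRNA63. Of the 42 called lower there 35 were among the genes described here. Of these, 19 (54.3%) were called lower with shRNA63, beside 3.25% of all genes. The 19 are 4.04% of the 470. Among them NPTX1, OLFML2A, CHST2 and CACNA1H were under 1 FPKM with shRNA63 and entered only through the control group. HPSE had log2 fold changes of -2.07 with shRNA63 and -4.24 in the AML1-ETO comparison of the authors' deposited tables, and FLT1 -0.88 and -5.35. TM4SF1 was the 1 gene of these called in the opposite direction, higher with shRNA63 (1.11) and lower with AML1-ETO shRNA (-6.03) in the authors' deposited tables. In the libraries labelled shRNA95, compared with the same control libraries, all of the 13 except CD82 were also called higher. All of the 19 except TTC29 and NPTX1 were also called lower there. JMJD1C was not called in those libraries (log2 fold change -0.23, Cuffdiff q = 0.938), so the overlap is not particular to shRNA63.

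Genes near the limits of the rule show how they divide. Just inside the FPKM limit were TMEM238 and Metazoa_SRP, at 0.974 and 0.425 FPKM in the control group and at 1 FPKM, rounded, with shRNA63. Just outside were RP5-1021I20.1 (0.859 and 0.999 FPKM) and RP11-165J3.6, which was just under 1 FPKM in the control group and at 0.802 FPKM with shRNA63. At the q-value limit of the authors' deposited table CACNB4 (7.92 and 4.38 FPKM) and SEMA4B (2.38 and 4.53 FPKM) were called at 0.0498, while SLC44A2 (52.2 and 17.2 FPKM) and USP3 (36.6 and 20 FPKM) were not called at 0.0504.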

How the data were processed

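Per the submitters' processing notes, TopHat2 2.0.8b, Cuffdiff 2.1.1 and hg19 were used, with no role or order given; strandedness and annotation release are not given in the sources used here. The authors deposited, per the file headers, 1 FPKM value per group, a log2 fold change, a test statistic (a score per gene), and p-values with q-values. Replicates had been combined by the authors, so no test across libraries was made and the q-value under 0.05 as deposited is the call. The error is the log2 fold change over the statistic; over 6794 genes the deposited p corresponded to a normal deviate 1.38 times as large as the statistic (median), and 11 called genes had a fold change under 2 times their error, so p and error are not on 1 scale. The smallest p, 5e-05, was shared by 395 genes, all with the q-value 0.00214.

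From the FPKM a log2 ratio with a pseudocount of 1 was computed (Python 3.11.15, pandas 2.3.3, numpy 2.4.6) for tested genes of at least 1 FPKM in either group; it understates the change of low genes. A symbol with several gene IDs was taken at its tested row of highest FPKM. Of the third table, 2 columns of per-sample values belong to another series and were not used. The genes, the 57 lists and the named genes were chosen with earlier results of these data known. Named were JMJD1C, the 15 highest and lowest ratios among called genes with at least 10 FPKM in the higher group and no group at 0, the 10 called genes of highest FPKM, called list members (at most 6 a list) with a few uncalled ones, and genes at the limits; a few genes that this rule names are not reported here. The scripts were tested on simulated data. Gene types for 13661 of the 14475 genes came from GENCODE v29 by Ensembl ID, and promoters from RefSeq. Alternatives tried were q under 0.01, FPKM minimums of 0 and 5, pseudocounts of 0.1 and 5, a ratio of at least 1 and centring.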

Additional observations from a re-analysis of the deposited data

How the results depend on the processing

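With a q-value under 0.01 the authors' deposited table gave 519 calls, 211 higher and 308 lower, in place of 831, 361 and 470. A minimum of 5 FPKM left 239 higher calls. Asking also for an absolute log2 ratio of at least 1 left 237 calls, 79 higher and 158 lower. At q under 0.01 the count of called members moved by over 1.5 times in 14 of 47 lists that had a call. Under both pseudocounts, both FPKM limits and centring, list medians that moved by more than their error kept their sign. The monocyte list went from 0.95 to 0.60 (pseudocount 5), 0.54 (no filter) and 1.36 (5 FPKM). The mast cell list went from -1.05 to -1.42 (pseudocount 0.1), -0.57 (pseudocount 5), -0.37 (no filter) and -0.55 (5 FPKM). Some smaller moves crossed 0. At 5 FPKM the megakaryocyte and erythroid list went from -0.25 to 0.01 and the adhesion and migration list from -0.11 to 0.01. Without a filter the NF-kB list went from -0.05 to 0.02. At 5 FPKM the S100 and annexin list went from 0.45 to 0.06 and the T, B and natural killer cell markers from -0.60 to -1.46. Ratios of named genes moved by more than their error in 23 of 143 with a pseudocount of 0.1 and in 44 with 5. A pseudocount cannot change the sign of a gene's ratio, so signs kept under it, also those of list medians, are not a test. No gene of the AML1-ETO table passed q under 0.01 (smallest 0.0178), so that alternative gave no overlap. No paired analysis was possible because the deposited tables hold 1 value per group, and leaving out a replicate was not possible for the same reason. Reads per library are unknown, and errors had medians of 0.584 at 1 to 5 FPKM and 0.294 at 100 FPKM and above.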

Other observations

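Of the 831 called genes 703 were in none of the 57 lists. The 10 called genes of highest FPKM held, besides PRTN3, ELANE and AZU1, mitochondrial genes: MT-CO2, MT-ND4, MT-ND3 and MT-ND2, which were higher, and 3 genes named J01415 with a number. Of these, J01415.23 was at 1610 FPKM in the control group and 2843 FPKM with shRNA63, and J01415.6 was at 11601 and 4984 FPKM, with an error that prints as 0.00.

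The authors' table lists genes that could not be compared because their values failed or were too deeply covered: EEF1A1, a translation elongation factor, and TFRC, the transferrin receptor, are listed at 0 in both groups, and CSF3R, the receptor for granulocyte colony-stimulating factor, at 0 in the control group and 458 FPKM with shRNA63. A value of 0 listed for such genes is a failed estimate, and no fold was computed. Among the 14475 genes the control group was listed at 0 for 92 and the shRNA63 group for 85, and 3 of these were called.

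Called genes shared with the AML1-ETO comparison that no list holds include TSHZ3, a zinc finger homeobox factor, which went from 18.6 to 4.73 FPKM with shRNA63, EDIL3, a secreted integrin ligand, from 14.2 to 3.50 FPKM, and PADI3, a peptidyl arginine deiminase, from 18.6 to 7.51 FPKM. They were chosen here after their values had been seen. In the authors' deposited tables TTC29 had log2 fold changes of -1.68 with shRNA63, 0.23 in the libraries labelled shRNA95 and -4.16 with AML1-ETO shRNA. The log2 fold changes of PADI3 in the same deposited tables were -1.31, -1.54 and -4.79.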
